A study of Mus musculus with 10 samples.

Results

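Endothelial genes, the angiogenic ligand Vegfa and the Notch receptor Notch4 were followed through mouse mammary tumours induced by the MMTV-PyMT transgene. This transgene places the polyomavirus middle T oncogene under the long terminal repeat of the mouse mammary tumour virus, which is active in mammary epithelial cells. The group holds 10 genes (Pecam1, Cdh5, Kdr, Flt1, Tek, Tie1, Eng, Vwf, Vegfa and Notch4) of 8252 genes that the array names singly, and every probe set annotated to them was taken, 14 in all. Total RNA of tumours from adult female mice aged 90 days was hybridised to 10 Affymetrix MG-U74Av2 arrays, 1 for each labelled RNA. By the strain name in the title there was 1 array of FVBn and 2 arrays, lettered A and B, of each of ILn, LP, MOLF and NZB, and all of these mice carry the transgene. The strain label gives FVB/Nj for every array, so the grouping rests on the titles alone. The titles call the RNA of these 9 arrays a mix, and nothing states that A and B came from separate animals, so p-values measure only the spread between arrays, which may be technical. The title of the 10th array names neither a strain nor a tumour, and this array entered no comparison.

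The inner wall of blood vessels is a single layer of endothelial cells. VEGF-A, made by tumour and stromal cells, binds the receptor kinases Kdr and Flt1 on these cells and drives the sprouting of vessels, while angiopoietins act through Tek, with Tie1 as its partner, on the stability of the vessel wall. Notch receptors on endothelial cells restrain sprouting when a neighbouring cell presents a Delta or Jagged ligand. Notch4 is a mainly endothelial member of that family. It was first met as int-3, an insertion site of the mouse mammary tumour virus in mammary tumours, where a truncated and constitutively active form of the receptor was produced.

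The start-site windows of 6 members are shown because the results turn on these genes: Notch4 for the disagreement of its probe sets, Kdr and Flt1 for values that were high together on the same arrays, and Tie1, Eng and Vegfa for values that were low on those arrays. Each is the RefSeq window of 300 bases (GRCm38.p6), from 250 bases before to 50 bases after the start, read 5′ to 3′ on the gene's own strand. Capitals mark matches, on either strand, to the following motifs. CAGGAA and CCGGAA are forms of the core read by ETS factors, common in endothelial regulatory DNA, and other forms were not searched. TGGGAA is the core of RBPJ, the DNA-binding partner of Notch. GGGCGG is the GC box of Sp1, and ACGTG is the core of the hypoxia response element. No matches overlap in these 6 windows.
Notch4 (chr17:34564045-34564344, plus strand): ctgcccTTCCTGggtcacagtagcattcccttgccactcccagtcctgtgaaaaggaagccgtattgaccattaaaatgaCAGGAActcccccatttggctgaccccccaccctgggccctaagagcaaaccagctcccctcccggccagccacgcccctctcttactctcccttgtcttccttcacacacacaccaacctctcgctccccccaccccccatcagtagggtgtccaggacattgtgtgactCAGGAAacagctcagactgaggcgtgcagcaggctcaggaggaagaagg
Kdr (chr5:75978406-75978705, minus strand): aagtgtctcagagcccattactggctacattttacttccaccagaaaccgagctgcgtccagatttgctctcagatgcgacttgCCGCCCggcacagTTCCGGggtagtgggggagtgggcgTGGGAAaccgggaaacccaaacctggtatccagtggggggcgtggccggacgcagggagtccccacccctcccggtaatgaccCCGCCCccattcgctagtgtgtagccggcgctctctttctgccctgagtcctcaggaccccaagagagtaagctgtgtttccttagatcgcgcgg
Flt1 (chr5:147725962-147726261, minus strand): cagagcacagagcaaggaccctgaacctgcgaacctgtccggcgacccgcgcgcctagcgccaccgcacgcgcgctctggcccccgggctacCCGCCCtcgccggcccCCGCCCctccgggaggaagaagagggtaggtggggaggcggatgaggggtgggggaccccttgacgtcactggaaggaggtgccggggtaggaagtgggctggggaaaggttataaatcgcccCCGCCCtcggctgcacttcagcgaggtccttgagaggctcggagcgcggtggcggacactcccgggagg
Tie1 (chr4:118489800-118490099, minus strand): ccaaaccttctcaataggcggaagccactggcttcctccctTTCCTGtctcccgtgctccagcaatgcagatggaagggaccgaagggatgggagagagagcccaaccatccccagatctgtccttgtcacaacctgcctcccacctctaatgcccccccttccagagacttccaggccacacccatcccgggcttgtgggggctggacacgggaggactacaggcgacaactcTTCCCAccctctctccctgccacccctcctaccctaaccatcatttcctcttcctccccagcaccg
Eng (chr2:32646345-32646644, plus strand): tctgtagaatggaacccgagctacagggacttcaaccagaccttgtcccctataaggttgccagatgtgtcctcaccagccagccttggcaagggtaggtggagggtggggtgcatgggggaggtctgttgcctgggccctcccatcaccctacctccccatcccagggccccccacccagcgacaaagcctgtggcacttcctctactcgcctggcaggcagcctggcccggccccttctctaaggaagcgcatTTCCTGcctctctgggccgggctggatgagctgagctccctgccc
Vegfa (chr17:46032328-46032627, minus strand): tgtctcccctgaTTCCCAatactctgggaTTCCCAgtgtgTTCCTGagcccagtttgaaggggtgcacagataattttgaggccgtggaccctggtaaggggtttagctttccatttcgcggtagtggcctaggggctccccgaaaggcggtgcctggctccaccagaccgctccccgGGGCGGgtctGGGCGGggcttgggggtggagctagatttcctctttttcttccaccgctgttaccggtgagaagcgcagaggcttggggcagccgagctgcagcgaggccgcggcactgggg

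The Notch4 window held 3 matches to CAGGAA and none to the other 4 motifs. The Kdr window held 1 match to CCGGAA, 1 to TGGGAA and 2 to GGGCGG, and the Flt1 window held 3 matches to GGGCGG alone. Of the motifs searched, only GGGCGG, the GC box, matched in both the Kdr and the Flt1 window. Tie1 had 1 match to CAGGAA and 1 to TGGGAA, Eng had 1 to CAGGAA, and the Vegfa start shown had 1 to CAGGAA, 2 to TGGGAA and 2 to GGGCGG. A second Vegfa start listed by RefSeq carried the only ACGTG match among 8 entries of 7 members. Among all 32851 RefSeq mouse windows of this length, CAGGAA was present in 30.6%, CCGGAA in 14.9%, TGGGAA in 25.6%, GGGCGG in 35.7% and ACGTG in 19.6%, so each of these short motifs is common, and a match is only a description of the letters.

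Values below are quantile normalized log2 intensities. Differences between arrays or strains are compared, and the level of one probe set is not set against that of another. Values under an intensity of 27.0, or 4.75 on the log2 scale, were raised to that floor, so a value at 4.75 is only an upper bound. Of the 14 member probe sets, 11 lay above the floor on at least 2 of the 9 strain arrays and could be tested. Tek, the angiopoietin receptor, and a Vwf probe set (97052_at) were at the floor on all 9, and a second Flt1 probe set (98453_at) was above it only on NZB A, at 5.45. The tested probe sets include 2 for Notch4 and 9 for the other members.

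MOLF A and NZB B formed a pair of their own. The correlation between them was 0.927 and theirs to the other 7 strain arrays 0.812 to 0.868, while those 7 had no correlation under 0.931, so the values that move most without them are given beside the results. The title dates fall into 4 batches, of which 1 holds an array of each strain name (FVBn B, ILn B, LP B, MOLF B and NZB A) and serves for values within a batch. The log2 ratio of 3' to 5' actin control probe sets was 0.22 to 0.28 in FVBn and ILn, 0.60 to 0.78 in MOLF and 0.94 to 1.12 in LP and NZB. This measure of transcript integrity moved with strain, and its part in the results was not tested. In tumour tissue, fewer endothelial cells and less RNA per endothelial cell cannot be told apart.

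The 2 probe sets annotated to Notch4 did not vary together across the strains. Notch4 was included with earlier results of these arrays in view, among them the difference of the probe set 93928_f_at in LP, so this gene was chosen by its measured values, which are described with no test. The 9 other members were named as endothelial or angiogenic genes in the same view. That probe set read 10.61 on FVBn B, 10.19 and 9.60 on ILn A and B, 12.30 and 12.00 on LP A and B, 9.89 and 9.50 on MOLF A and B, and 11.67 and 11.44 on NZB A and B. The LP arrays lay highest, the NZB arrays next and without overlap with any other strain, FVBn between, and ILn and MOLF lowest with overlapping values.

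As mean ± SD of 2 arrays, 93928_f_at stood at 12.15 ± 0.21 for LP, 11.55 ± 0.16 for NZB, 9.89 ± 0.42 for ILn and 9.69 ± 0.28 for MOLF. LP lay 1.77 above the mean of ILn, MOLF and NZB, 3.41-fold, and NZB lay 0.98 above the mean of its 3 counterparts. ILn lay 1.24 log2 units below the other strains (a difference of -1.24) and MOLF 1.51 below (-1.51). The neighbours LP and NZB in this order differed by 0.59, or 1.51-fold, while ILn and MOLF differed by 0.20 and overlapped. Within the title-date batch that holds all strains the order of the 5 arrays was that of the strain means, from LP B at 12.00 down to MOLF B at 9.50, and the difference was 1.74 for LP and -1.59 for MOLF. Without MOLF A and NZB B the LP difference was 1.79. The A array was above the B array in all 4 strains, by 0.59 for ILn, 0.39 for MOLF, 0.30 for LP and 0.23 for NZB.

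The other Notch4 probe set, 92652_at, was near or at the floor. It read 4.90 on FVBn B, 5.34 and 5.79 on ILn A and B, 5.10 on LP A, 4.91 on NZB A, and the floor of 4.75 on LP B, both MOLF arrays and NZB B. Only the ILn arrays lay above all 6 arrays of LP, MOLF and NZB, by 0.73 on average, and these are the strain in which 93928_f_at was among the lowest. The LP difference of 92652_at was -0.12, against 1.77 for 93928_f_at. The MOLF value is a bound, because both MOLF arrays were at the floor. On this array design the suffix f marks a probe set whose probes can match several related sequences, which limits 93928_f_at as a measure of Notch4 alone. The probe sequences were not used here.

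**Figure D1:**
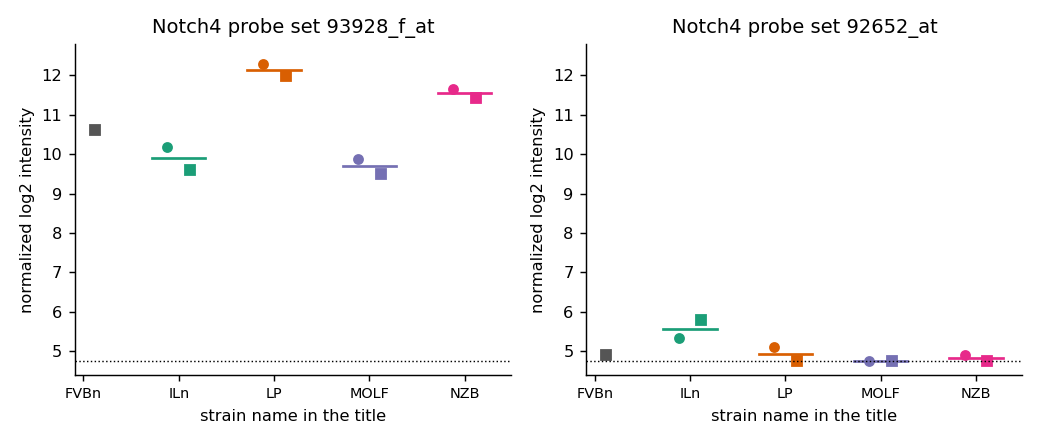
Normalized log2 intensity (vertical axis) of the 2 Notch4 probe sets by strain name (horizontal axis). Circles are A arrays, squares B arrays, short lines the mean of 2 arrays, and the dotted line the floor of 4.75. In 93928_f_at the LP arrays are highest at 12.30 and 12.00, whereas in 92652_at the ILn arrays are highest at 5.34 and 5.79.

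Set beside the endothelial members, 93928_f_at ranged far more widely across the strains than the endothelial mean did. Each of the 7 tested endothelial genes (Pecam1, Cdh5, Kdr, Flt1, Tie1, Eng and Vwf, with the brighter probe set of Tie1) was centred on its mean over the 9 arrays and the genes were averaged. This mean ran from -0.28 on LP A to 0.21 on ILn A. Centred in the same way, 93928_f_at ran from -1.30 on MOLF B to 1.501 on LP A, and 92652_at from -0.25, its floor, to 0.78 on ILn B. On LP A the Notch4 probe set 93928_f_at was at its highest while the endothelial mean was at its lowest. An average over 7 genes varies less than a single probe set by its construction, so the ranges are a description. Single members could range as widely. Over the 9 arrays the range was 3.18 for Kdr and 2.44 for Flt1 98452_at, against 2.80 for 93928_f_at. Among the other tested members the widest range was 2.19, that of Vegfa.

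Member by member the likeness to Notch4 was uneven. Over the 9 arrays the Pearson correlation of 93928_f_at was highest with Cdh5, at 0.52, and lowest with the Tie1 probe set 99936_at, at -0.44. Without MOLF A and NZB B it was highest with Eng, at 0.82, against 0.38 over the 9 arrays. That with Cdh5 was then 0.52 and that with Tie1 99936_at -0.85, so the closest member depended on these arrays. For 92652_at the correlation over the 9 arrays was highest with Vwf, at 0.80, and lowest with Kdr, at -0.63. Without MOLF A and NZB B it was highest with Vwf, at 0.78, and lowest with Eng, at -0.65. Vwf and 92652_at share floor values on most arrays and ILn as their highest strain. The genes outside the group most like 93928_f_at, among 8776 tested probe sets of other genes, were Tnni2 (0.947), a fast skeletal muscle troponin, the interferon-induced Ifit2 (0.939) and Isg15 (0.939), Ly75 (0.938), an endocytic receptor of dendritic cells, and 2700099C18Rik (0.931). Tnni2, Ifit2 and Ly75 were at the floor on FVBn B, ILn B and both MOLF arrays, and 2700099C18Rik on ILn B and MOLF A. Their likeness thus rests in part on floor values, while Isg15 was above the floor on every strain array. The genes most like 92652_at were the immunoglobulin heavy chain genes Igha (0.964) and Ighg3 (0.945), Glud1 (0.945), Vamp1 (0.945) and Rbp4 (0.939). Like 92652_at, all 5 were at the floor on LP B, the MOLF arrays and NZB B. Ighg3 and Rbp4 were above it on the ILn arrays alone, which admitted them to the tested set. These likenesses to 92652_at thus rest largely on shared floor values and on ILn, and nothing is read from them. For the endothelial mean they were Mccc1 (0.930), Cul1 (0.924), Clec11a (0.909), B3galt4 (0.907) and Flt3 (0.900). These are the highest of many correlations over 9 arrays that share strain and title date, and none of the 3 sets of 5 names a listed endothelial gene.

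Skeletal muscle and interferon genes moved with 93928_f_at over the strains. The mean of 17 tested skeletal muscle genes, each centred, was 1.48 and 1.43 on the LP arrays, 1.09 and 0.93 on NZB, -0.26 and -0.32 on ILn, -1.32 and -1.31 on MOLF and -1.72 on FVBn B. Of these genes 8 rose in LP and 9 fell in MOLF, where 0.313% and 0.414% of all probe sets were called. With title date as a block the counts were 0 in LP and 1 in MOLF, without MOLF A and NZB B they were 0 and 3, and with single arrays left out they ran from 0 to 7 in LP and from 1 to 9 in MOLF, with 0 in LP when any one of the ILn and LP arrays was left out. The mean of 17 interferon response genes was 1.02 and 1.16 on LP, 0.70 and 0.39 on NZB, -0.24 and -0.32 on ILn, -1.20 and -0.87 on MOLF and -0.65 on FVBn B, and 3 of them passed in LP (Gbp3, Gbp2b and Isg15) while 4 fell in MOLF (Gbp3, Ifit3, Iigp1 and Isg15). Gbp2b was above the floor on the LP arrays alone, which admitted it to the tested set, so nothing is read from its test. No interferon gene was called in LP or MOLF with title date as a block, without MOLF A and NZB B, or with any one of the ILn and LP arrays left out. These alternatives for gene lists were chosen after seeing the data. LP and NZB were thus the high strains in all 3 measures, and FVBn was the lowest for muscle but in the middle for Notch4. On the array with no strain name the muscle mean was 3.11 and the interferon mean -0.76, while 93928_f_at, centred in the same way, was -3.51. The likeness to muscle was thus one over the strain arrays only. The part of muscle or interferon-responding cells in the Notch4 signal was not tested.

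**Figure D2:**
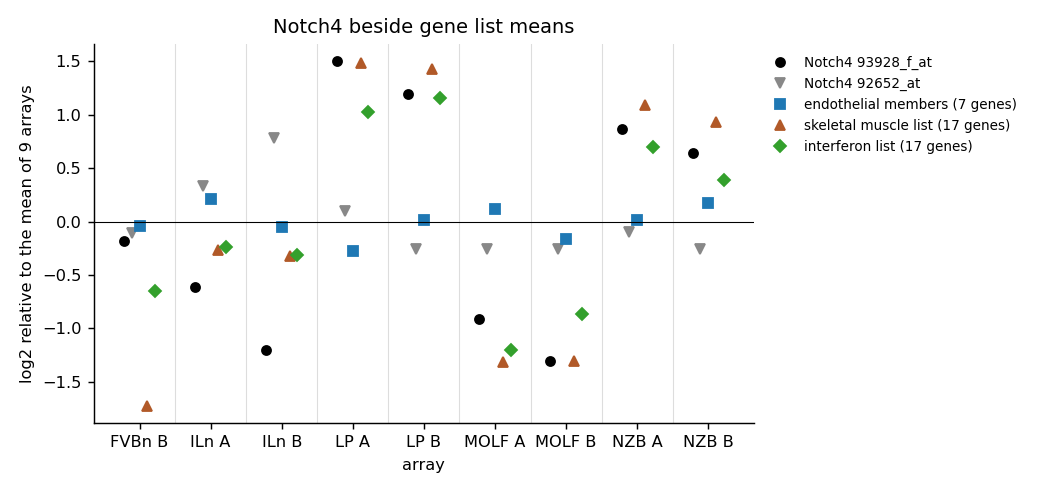
Centred log2 intensity (vertical axis, relative to the mean of the 9 strain arrays) of both Notch4 probe sets and of 3 gene list means on each strain array (horizontal axis). The mean of 7 endothelial genes stays between -0.28 and 0.21, while 93928_f_at and the muscle and interferon lists are above 0 on the LP and NZB arrays and below 0 on the others.

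The tested neighbours of Notch4 on chromosome 17, all on the same side of it, had no called change. Of the 10 RefSeq genes next to it at lower coordinates, none has a probe set. Of the 10 at higher coordinates, 9 have a probe set and 8 could be tested with 10 probe sets (Gpsm3, Pbx2, Ager, Rnf5, Agpat1, Ppt2, Fkbpl and Atf6b). None passed the limma test, with adjusted p from 0.655 upwards and 0 of 10 at an unadjusted p under 0.05 in any test. Over all tested probe sets 0.101% to 0.748% were called in these tests, and 3.41% to 8.4% reached the unadjusted level. A count of 0 among 10 is thus not a result about the neighbours. Their LP differences lay between -0.64 and 0.23, against 1.77 for 93928_f_at, which was included with that difference in view.

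None of the other 9 member probe sets passed a test of strain, so no strain name had a called change in an endothelial marker or in Vegfa. The tests were limma's moderated F test over ILn, LP, MOLF and NZB, each of them against the mean of the other 3, and their mean against FVBn, at an adjusted p under 0.05 over 9899 probe sets. In the F test 0 of 9 were called, where 0.748% of all probe sets were. For ILn the count was 0 of 9 against a background of 0.404%, for LP 0 of 9 against 0.313%, for MOLF 0 of 9 against 0.414%, for NZB 0 of 9 against 0.101% and for the strains against FVBn 0 of 9 against 0.313%. At these backgrounds a count of 0 among 9 is not a result about the members. At an unadjusted p under 0.05 limma gave 1 of 9 in the F test, where 7.9% of all probe sets reached it, 1 for ILn (7.11%), 0 for LP (5.69%), 1 for MOLF (6.42%), 0 for NZB (8.4%) and 0 against FVBn (3.41%). The members concerned were Vwf, in the F test and in ILn, and Cdh5 in MOLF. Vwf was above the floor on the ILn arrays alone and entered the tested set only through them, so its place in these counts, and in those of arrays that do not overlap, is no support.

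Counted by arrays that do not overlap, a strain's 2 arrays lay both above or both below all 6 arrays of the other 3 strains for 3 of 9 member probe sets in ILn (Vwf, Vegfa and Tie1 99936_at), where 10.4% of all probe sets did. The count was 1 of 9 in LP (Eng, higher, background 7.01%). It was 2 of 9 in MOLF (Cdh5 and Tie1 161184_f_at, lower, background 6.22%) and 1 of 9 in NZB (Cdh5, higher, background 7.98%). In the LP comparison, which was in view when Notch4 was included, nothing is read from the count. The median difference of the 7 endothelial genes was 0.19 for ILn, -0.23 for LP, -0.22 for MOLF, -0.30 for NZB and -0.14 against FVBn, beside medians over all tested probe sets between -0.02 and 0.02. These small medians kept no stable sign: in ILn, LP, MOLF and NZB the sign turned with the floor, with the filter on dim probe sets or within the batch of all strains, as the closing section lists.

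Vegfa, the ligand, was highest in FVBn and ILn. It read 6.94 on FVBn B, 6.54 and 6.27 on ILn A and B, 5.75 and 5.78 on LP A and B, 5.93 on MOLF B and 6.14 on NZB A, and it was at the floor on MOLF A and NZB B. The ILn arrays did not overlap with LP, MOLF or NZB, yet the ILn difference of 0.89 (SE 0.467, limma adjusted p = 0.788) did not pass. Without MOLF A and NZB B it was 0.46, and within the batch of all strains 0.32. The NZB difference turned from -0.39 to 0.10 without these arrays. The 4 strains lay 1.21 below the single FVBn array (a difference of -1.21, SE 0.606, limma adjusted p = 0.999), with FVBn B above all 8 arrays. That difference was -0.89 without MOLF A and NZB B.

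Kdr, the main signalling receptor of VEGF-A, varied widely between arrays of 1 strain. It read 5.92 on FVBn B, 6.34 and the floor on ILn A and B, 4.88 and 5.98 on LP A and B, 7.94 and 6.07 on MOLF A and B, and 6.43 and 7.87 on NZB A and B. The pooled SD within strains was 1.08. Only MOLF A and NZB B stood clear of the rest. The NZB difference of 1.15 had a 95% interval from -0.50 to 2.81 (limma adjusted p = 0.669) and the LP difference of -1.13 one from -2.78 to 0.52 (limma adjusted p = 0.903). Without MOLF A and NZB B the differences were 0.75 for NZB and -0.58 for LP, and that of MOLF fell from 0.96 to 0.26. Within the batch of all strains the LP difference was 0.23, so its direction turned.

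Flt1, the second VEGF receptor, which binds the ligand tightly and signals weakly, showed the same arrays. Its probe set 98452_at read 5.41 on FVBn B, 5.56 and 5.82 on ILn, 5.77 and 5.42 on LP, 7.70 and 5.74 on MOLF A and B, and 5.69 and 7.85 on NZB A and B. Outside MOLF A and NZB B the 7 arrays stayed between 5.41 and 5.82. The MOLF difference of 0.70 (limma adjusted p = 0.918) was 0.08 without these arrays, and the NZB difference of 0.77 (limma adjusted p = 0.730) was 0.01. The second Flt1 probe set did not show the high values, being at the floor on both arrays.

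Tie1, the partner of the angiopoietin receptor Tek, has 2 probe sets that gave different strain patterns. The probe set 99936_at read 5.76 on FVBn B, 6.10 and 6.27 on ILn, 5.01 and 5.65 on LP A and B, the floor and 5.90 on MOLF A and B, and 5.58 and the floor on NZB A and B. ILn was highest without overlap, by 0.91 (SE 0.399, limma adjusted p = 0.715). That difference was 0.58 without MOLF A and NZB B. The other, 161184_f_at, whose suffix f carries the limit given for Notch4, read 5.02 on FVBn B, 5.79 and 5.12 on ILn, 5.38 and 5.53 on LP, the floor and 4.86 on MOLF, and 5.44 and 4.995 on NZB. There MOLF was lowest without overlap, at -0.57 (SE 0.253, limma adjusted p = 0.802). The correlation of the 2 probe sets over the 9 arrays was 0.37.

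Eng, a co-receptor for TGF-beta ligands on proliferating endothelium, was above the floor on every array. It read 8.42 on FVBn B, 8.30 and 8.11 on ILn, 8.76 and 8.60 on LP, 7.74 and 8.42 on MOLF A and B, and 8.44 and 7.57 on NZB A and B. LP was highest without overlap among the 4 strains, by 0.58 (95% interval -0.07 to 1.24, limma adjusted p = 0.903). Without MOLF A and NZB B that difference was 0.33.

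Pecam1 and Cdh5 are adhesion molecules of endothelial junctions. Cdh5 was lowest in MOLF and highest in NZB among ILn, LP, MOLF and NZB. For Pecam1 the lowest was MOLF or NZB, depending on MOLF A and NZB B. Pecam1 read 6.29 on FVBn B, 6.46 and 6.43 on ILn, 6.07 and 6.69 on LP, 6.44 and 5.61 on MOLF A and B, and 6.13 and 5.39 on NZB A and B, and its strains overlapped throughout except for ILn over NZB. Its largest difference was -0.52 in NZB (95% interval -1.42 to 0.37, limma adjusted p = 0.695). Without MOLF A and NZB B the NZB difference was -0.01 and that of MOLF went from -0.17 to -0.71, so MOLF was then lowest for Pecam1 as well as Cdh5. Cdh5 read 6.38 on FVBn B, 6.11 and 6.004 on ILn, 6.02 and 6.22 on LP, the floor and 5.58 on MOLF A and B, and 6.34 and 6.28 on NZB. MOLF was lowest without overlap, at -0.99 (SE 0.319, limma adjusted p = 0.533). The MOLF difference was -0.59 without MOLF A and NZB B. NZB lay above ILn, LP and MOLF without overlap, by 0.53 (SE 0.319, limma adjusted p = 0.664). The NZB difference was 0.42 without MOLF A and NZB B. The correlation of Pecam1 with Cdh5 was -0.08 over 9 arrays and 0.65 without MOLF A and NZB B.

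Vwf, the clotting and adhesion protein stored in endothelial cells and platelets, was measured above the floor only in ILn. Its probe set 103499_at read 5.84 and 5.46 on ILn A and B and was at the floor on the other 7 strain arrays, FVBn B included. ILn was at least 1.86-fold higher than LP, MOLF and NZB (log2 difference 0.90). Because the ILn arrays alone admitted this probe set to the tested set, the difference is a description and no test is read from it. The ILn arrays also stood out for markers of another tissue. In ILn 8 of 11 salivary gland genes rose, where 0.404% of all probe sets were called. The salivary list means were 2.43 and 2.40 on ILn, 3.00 on FVBn B and no more than -0.16 on any array of the other strains. The globins Hba-a1 and Hbb-b2, 2 of 4 erythroid genes, rose in ILn too. The salivary count includes Obp1a, which only the ILn arrays admitted to the tested set. It was 6 with title date as a block, 5 without MOLF A and NZB B and 3 without either ILn array, and the erythroid count was 0 in each of these alternatives. The mean of 12 leukocyte and platelet genes was 0.09 and 0.07 on the ILn arrays and -0.24 to 0.11 on the others, with none called. The part of such tissue in the ILn values of Vwf, Vegfa and Tie1 was not tested.

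**Figure D3:**
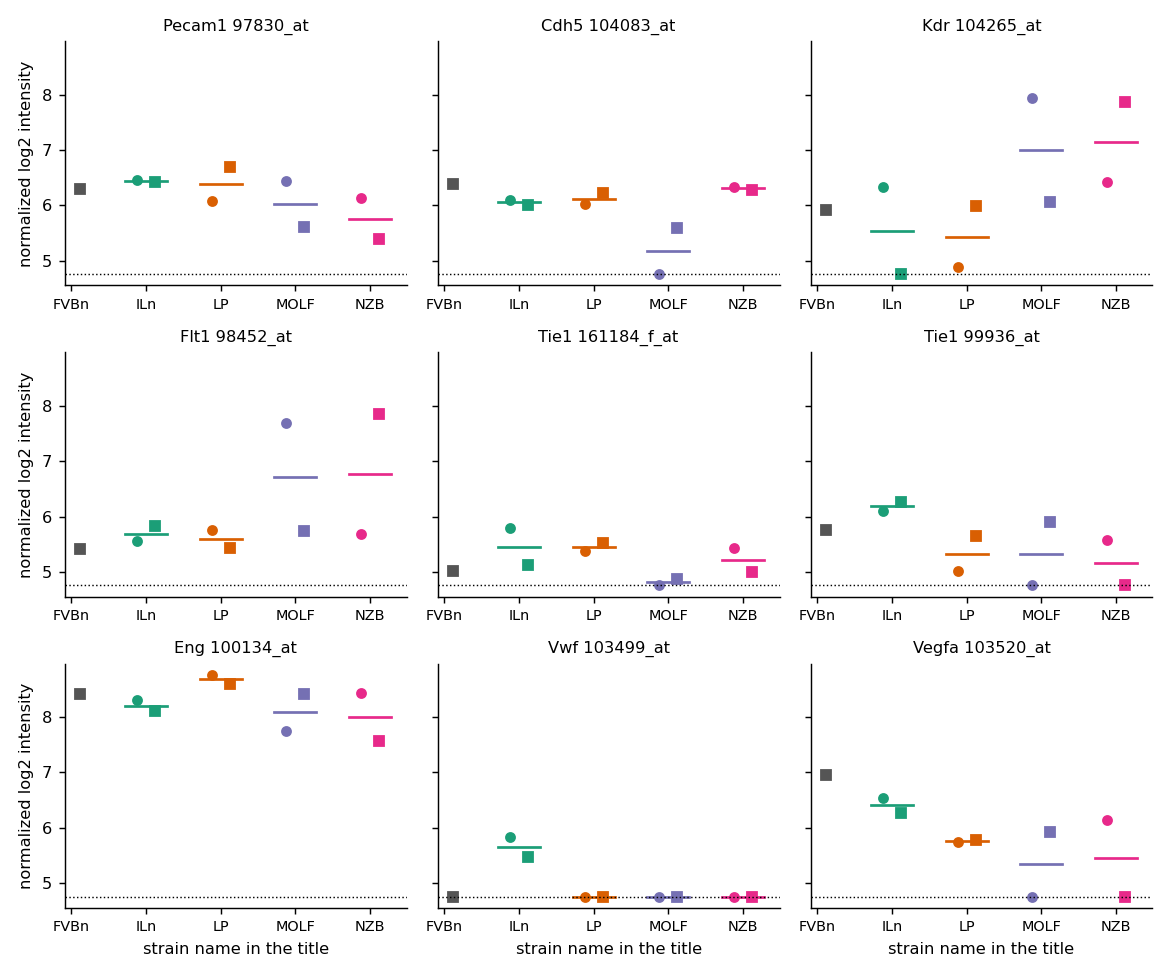
Normalized log2 intensity (vertical axis) of the 9 tested member probe sets other than Notch4, by strain name (horizontal axis). Circles are A arrays, squares B arrays, short lines the mean of 2 arrays and the dotted line the floor of 4.75. Vwf is above the floor only on the ILn arrays, at 5.84 and 5.46, and the high Kdr and Flt1 values are those of MOLF A and NZB B.

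The members split in direction on MOLF A and NZB B, as tested probe sets in general did. Both arrays lay above all 7 others for Kdr and for Flt1 98452_at, with differences of means of 2.13 and 2.15, and this held for 19.7% of all tested probe sets. Both lay below all 7 for Vegfa (-1.44), Tie1 99936_at (-0.997) and Eng (-0.78), as 16.9% of tested probe sets did, and for Vegfa and Tie1 the lower values are bounds at the floor. On these arrays Vegfa thus lay on the opposite side from Kdr and Flt1 98452_at, while the second Flt1 probe set, 98453_at, was at the floor on both. With 19.7% of all tested probe sets above and 16.9% below, such a split is a description and not a result about the members. Before normalization the median log2 intensity was 6.44 on MOLF A and 6.40 on NZB B. It was 5.96 to 6.03 on the other strain arrays except ILn A, at 7.78. The part of this shift in the directions was not tested. Pecam1, Cdh5, Vwf and Tie1 161184_f_at did not lie on 1 side of the other 7. The correlation of Kdr with Flt1 was 0.80 over the 9 arrays and -0.54 over the 7, so their likeness rests on MOLF A and NZB B, and that of Flt1 with Vegfa was -0.88 over the 9 and -0.42 over the 7.

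**Figure D4:**
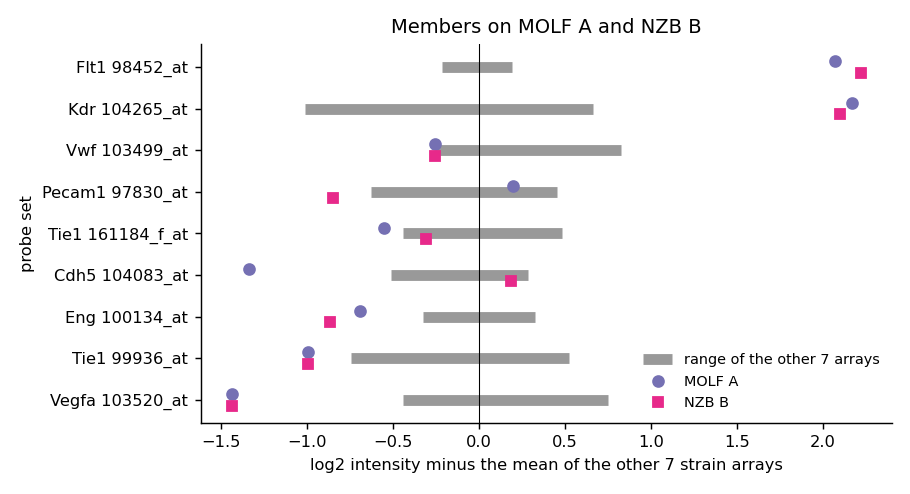
Log2 intensity of 9 member probe sets on MOLF A (circles) and NZB B (squares), relative to the mean of the other 7 strain arrays (horizontal axis, 0). Grey bars give the range of those 7. Kdr and Flt1 lie to the right of the bars, with differences of means of 2.13 and 2.15, and Vegfa, Tie1 99936_at and Eng to the left.

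A wider endothelial list was counted in the same way. Of 31 tested genes of a wider endothelial list none rose or fell in any of the 5 strain comparisons, and their median difference was 0.17 for ILn, -0.04 for LP, -0.07 for MOLF, -0.05 for NZB and -0.13 against FVBn. At an unadjusted p under 0.05 the limma counts were 7, 4, 3, 4 and 1 genes. A gene counted if any of its probe sets passed, and these 31 genes have 43. The shares of all probe sets at that level were 7.11%, 5.69%, 6.42%, 8.4% and 3.41%, in the same order. They stand beside the lists that follow too. At an adjusted p under 0.05 only 0.101% to 0.414% of all probe sets were called in these comparisons. A count of 0 in this list or in those that follow is thus not a result about the list. Cd34, a sialomucin of small vessels and progenitor cells, read 5.64 and 5.94 on ILn and 5.98 on FVBn B, and it was 4.82 on NZB A and at the floor on the LP and MOLF arrays and NZB B (ILn difference 1.03, limma adjusted p = 0.103). Emcn, the endothelial sialomucin endomucin, was above the floor on FVBn, ILn and LP and at the floor on all 4 MOLF and NZB arrays (ILn difference 1.06, limma adjusted p = 0.159). Second probe sets gave ILn differences of 0.38 for Cd34 and 0.53 for Emcn.

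In the VEGF and angiopoietin pathway none of 24 tested genes was called in any strain comparison, with medians between -0.11 and 0.01 and 1, 1, 1, 3 and 1 genes at an unadjusted limma p under 0.05 in ILn, LP, MOLF, NZB and against FVBn. The smallest p belonged to the adaptor Shc1 (ILn difference 1.35, limma adjusted p = 0.275), whose second probe set gave 0.06. Angpt2, the angiopoietin that loosens the vessel wall, read 5.86 and 5.83 on MOLF, above every other strain array (difference 0.70, limma adjusted p = 0.587). Of 23 other angiogenic regulators none was called, with medians between -0.18 and 0.18 and 6, 3, 2, 3 and 3 genes at an unadjusted limma p under 0.05. Col18a1, the collagen from which endostatin is cut, read 5.02 and 5.31 on NZB and 6.46 to 8.48 on the other strain arrays (NZB difference -2.80, SE 0.450, limma adjusted p = 0.123), but its 3 other probe sets gave only -0.27, -0.42 and -0.47. Itgav, an integrin subunit of sprouting vessels, gave a difference of 0.92 in ILn with a probe set that entered the tested set only through the ILn arrays, while its other probe sets gave -0.77 and 0.07.

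In the Notch pathway none of 24 tested genes was called, where 0.101% to 0.414% of all probe sets were. The medians lay between -0.10 and 0.12, and 2, 2, 1, 2 and 1 genes had an unadjusted limma p under 0.05 in ILn, LP, MOLF, NZB and against FVBn. Its smallest p values were those of the ligand Dll1, with 8.06 and 7.72 on ILn and 6.27 and 6.51 on LP (ILn difference 1.13, limma adjusted p = 0.390), and of the acetyltransferase Kat2b (0.66, limma adjusted p = 0.478). The Dll1 arrays of ILn lay above all 6 of LP, MOLF and NZB, as those of 92652_at did. Of all tested probe sets 10.4% had both ILn arrays above or both below those 6, so nothing is read from this likeness. Pericyte and smooth muscle genes, 13 tested, also had none called (4, 2, 0, 2 and 1 at an unadjusted limma p under 0.05), with Smtn 1.59 higher in ILn (limma adjusted p = 0.364) and Mylk 0.80 higher in NZB (limma adjusted p = 0.395). Among 12 leukocyte and platelet genes none was called (1, 0, 2, 0 and 0 at an unadjusted limma p under 0.05), with Lyz2 at -0.50 and Ptprc at -0.88 in MOLF (limma adjusted p = 0.688 for both). Of 12 tested epithelial genes 1, the keratin Krt19, fell in MOLF by 1.19 (limma adjusted p = 0.0274), while its second probe set gave -0.70 and the call was lost with title date as a block and without any single array other than FVBn B, and of 8 adipocyte genes none was called (1, 3, 2, 0 and 0 at an unadjusted limma p under 0.05).

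The array with no strain name held most of these genes at higher values than any strain array. It lay above all 9 for 8 of the 11 tested member probe sets, where 16.4% of all tested probe sets did, and for 2 of the 3 untested ones, Tek and Flt1 98453_at. It lay below all 9 for 1 of the 11, the Notch4 probe set 93928_f_at, at 7.29 against a lowest strain value of 9.50 (17.3% of tested probe sets lay below). Cdh5 read 8.87 there against at most 6.38 on a strain array, Vwf 7.94 against 5.84 and Tie1 99936_at 7.88 against 6.27. Tek, at the floor on all strain arrays, read 6.19. The 2 Notch4 probe sets thus went opposite ways once more, since 92652_at read 6.21, its highest value. The centred list means on this array were 1.79 for the endothelial members, 1.30 for the other endothelial genes, 1.25 for pericyte and smooth muscle genes, 3.86 for adipocyte, 3.11 for skeletal muscle, 2.18 for erythroid and -1.05 for epithelial genes. Its highest correlation with a strain array was 0.869. It is 1 array with a title date of its own, so no group is compared through it.

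**Figure D5:**
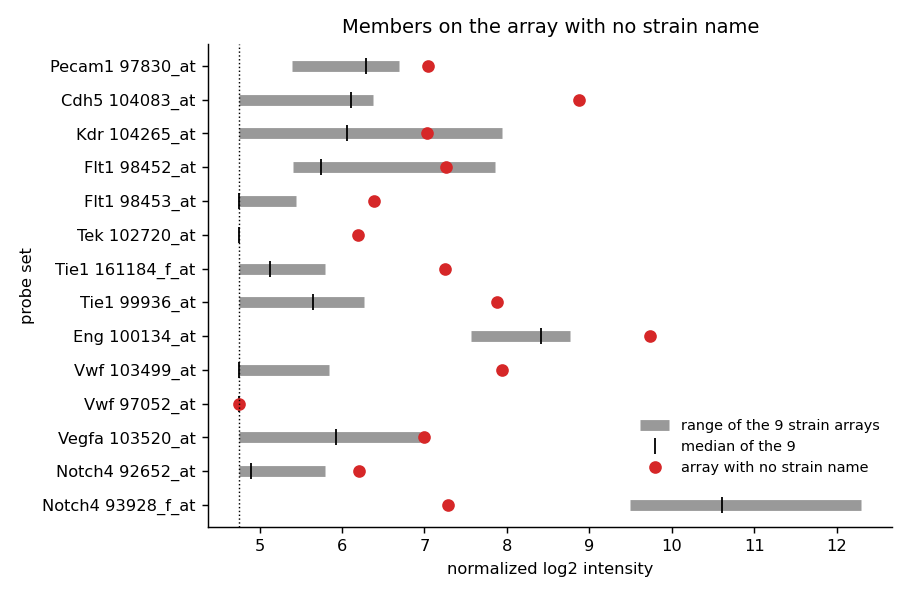
Normalized log2 intensity (horizontal axis) of all 14 member probe sets on the array with no strain name (red points), with the range (grey bars) and median (black ticks) of the 9 strain arrays and the floor of 4.75 (dotted line). Red points lie right of the bar for 10 probe sets, and for Notch4 93928_f_at the point at 7.29 lies left of it.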

How the data were processed

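The authors deposited 1 intensity per probe set and array on a linear scale, for 12488 probe sets. How probes were summarised: not given in the sources used here. Leaving out the lowest and highest 2%, arrays averaged 150.1, but ILn A 500.2.

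The 9 strain arrays were quantile normalized on the log2 scale with limma 3.58.1 in R 4.3.3, without 66 controls, and floored at the 30th percentile. The unlabelled array was set to the same distribution by rank. The 9899 probe sets above the floor on at least 2 arrays were fitted in 1 limma model with a mean per strain name (lmFit, eBayes with trend, 4 residual degrees of freedom), with Benjamini-Hochberg adjustment at 0.05. FVBn, with 1 array, borrowed the spread of the other strains. The fit was tested on simulated data. The number of arrays limits the precision.

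Gene names came from the platform annotation (1 symbol for 10855 probe sets, several for 396, none for 1237), updated for 10839 through RefSeq. A list's median uses the brightest tested probe set per gene. Members, gene lists and tests were chosen with earlier results of these data known. Named genes outside the members were, per list, up to 4 past a test or else the 2 smallest p-values, and the 5 most correlated with each Notch4 probe set and with the endothelial mean. Alternatives were other scalings, floors, filters, variance models, blocks and left-out arrays.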

Additional observations from a re-analysis of the deposited data

Results flagged for a closer look

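The array whose title names no strain was used in no comparison between groups, and 10 member probe sets read higher there than on any of the 9 strain arrays. Pecam1 read 7.04 on the log2 scale, 0.35 above the highest strain array. Cdh5 read 8.87, which was 2.49 above, and the Flt1 probe set 98453_at 6.39, which was 0.94 above. Tek read 6.19 and was at the floor of 4.75 on every strain array. Tie1 read 7.25 with 161184_f_at and 7.88 with 99936_at, 1.46 and 1.61 above the highest strain array. Eng read 9.73, Vwf 103499_at 7.94 and the Notch4 probe set 92652_at 6.21, higher by 0.97, 2.10 and 0.42. Vegfa read 6.99, only 0.05 above FVBn B. Of the 11 member probe sets tested between strains 8 were above every strain array, where 16.4% of all tested probe sets were. Adipocyte, skeletal muscle and erythroid genes were high on the same array, and their part in these values was not tested.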

How the results depend on the processing

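With 2 arrays a strain, the 95% interval of a strain's difference reached 0.59 (Tie1 161184_f_at) to 1.65 (Kdr) log2 units to either side, Vwf apart. That of Vwf, 0.40, rests on arrays set to the same floor value outside ILn and is no measure of precision. Values near the floor understate differences and spread. The count of called members was 0 of 9 in every test and alternative but one: with the floor at the 20th percentile it was 1 in ILn (Vwf, 1.87), a probe set admitted only through the ILn arrays, so this call is no support. The medians of the endothelial members were unstable. In ILn (0.19) the value was -0.000664 with the floor at the 40th percentile and -0.048 when probe sets had to average 1 above the floor. In LP (-0.23) it was 0.10 with the floor at the 20th percentile, -0.042 at the 40th, 0.28 with the stricter filter, 0.23 within the title-date batch of all strains, and -0.30 to 0.089 when single arrays were left out (0.089 without LP A, -0.040 without MOLF B). In MOLF (-0.22) it was -0.022 without MOLF A and NZB B and 0.037 within that batch. In NZB (-0.30) it was 0.065 with the floor at the 40th percentile, 0.53 with the stricter filter, -6.68e-05 without MOLF A and NZB B, 0.025 within the batch, and -0.35 to -0.036 with single arrays left out (-0.036 without NZB B).

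The Notch4 probe set 93928_f_at kept its direction in each strain under all alternatives run. Its LP difference of 1.77 was 2.14 with median centring, its NZB difference of 0.98 was 0.66 with median centring and 1.30 within the batch, and its ILn difference was -1.53 to -0.94 with single arrays left out, without ILn A and ILn B in turn. The dim probe set 92652_at moved with the floor: at the 20th percentile its difference was 1.21 in ILn (0.73), -0.81 in MOLF (-0.36) and -0.24 against FVBn (0.12), where the sign turned. Its LP difference (-0.12) turned to 0.016 with that floor and to 0.053 without LP B. Within the batch it was 0.98 in ILn and -0.40 in LP, and with single arrays left out 0.50 to 0.95 in ILn. The causes of these shifts were not tested. Over all probe sets the number called ranged over the alternatives from 1 to 122 in the F test (74), 6 to 92 in ILn (40), 0 to 54 in LP (31), 3 to 53 in MOLF (41), 0 to 36 in NZB (10) and 10 to 102 against FVBn (31). The lowest counts came without ILn A or ILn B in the F test and ILn and without ILn A in MOLF. In LP and NZB title date as a block and leaving out either ILn array gave 0, in LP also leaving out either LP array, and against FVBn title date as a block gave the lowest count. In NZB the called probe sets split into 4 higher and 6 lower, and into 0 and 4 with median centring.

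Whether the array letters A and B pair samples is not known, and the main fit did not pair them. The correlation of the A minus B differences between strains lay between -0.71 (MOLF with NZB) and 0.13 (LP with MOLF). MOLF A and NZB B, which stood apart, carry opposite letters, so these correlations cannot decide whether the letters pair samples. With the letter as a replicate block the members called stayed at 0 in all 6 tests, and the LP difference of 93928_f_at was 1.77.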
